A study of Homo sapiens with 8 samples.

Results

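The hypoxia response and glycolysis genes are a set of 41 genes that cells use to sense low oxygen, to adapt to it and to break glucose down to pyruvate and lactate. The set comprises subunits of the hypoxia-inducible factors (HIF), the enzymes that control these factors, a panel of their well-known target genes, and the glucose transporters and enzymes of glycolysis. Members were chosen by name, and each was read by its brightest probe set, the one with the highest mean over all 8 arrays among probe sets annotated to that gene alone. A probe set is a group of short array probes that together report 1 transcript. Of the 41 genes, 39 had such a probe set, out of 19775 genes measured in all; CA9 and SLC16A3 were not analysed here.

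Expression was measured in MDA-MB-231 cells, a mesenchymal-like human breast cancer line that lacks hormone receptors, after 2 days on a soft or on a stiff substrate, with 4 biological replicates (A to D) and 4 arrays for each substrate. All cells were kept in the same serum-containing medium, so the substrate is the only stated difference between the groups, and no stiffness value is given in the sources used here. The study concerned the response of cells to mechanical cues by way of RhoA and mevalonate metabolism; oxygen is not named in the labels as a variable. Only 1 cell line was used.

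HIF is a pair of proteins, an oxygen-labile alpha subunit (HIF1A or EPAS1) and a stable partner (ARNT). When oxygen is plentiful, prolyl hydroxylases of the EGLN family mark the alpha subunit for destruction, so HIF activity is set mainly by protein stability rather than by the amount of alpha subunit mRNA. When the alpha subunit persists, the pair binds DNA at hypoxia response elements and raises transcription of genes for glucose uptake, glycolysis, vessel growth, acid handling and mitochondrial turnover. Many glycolytic enzymes are made at a high level in cancer cell lines even with ample oxygen, and several HIF targets also answer to other signals.

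The DNA core of a hypoxia response element is ACGTG or GCGTG, and its neighbourhood is shown for 5 members as examples of each outcome: ANKRD37, BNIP3 and PFKFB4, which were higher on soft, ADM, which was lower on soft, and LDHA, which differed little. Each sequence is the 250 bases before the transcription start listed first for that gene in RefSeq (GRCh38.p14), read along the gene, with every ACGTG and GCGTG on either strand in capitals; on the opposite strand they read CACGT and CACGC.
ANKRD37, chr4:185396591-185396840, plus strand: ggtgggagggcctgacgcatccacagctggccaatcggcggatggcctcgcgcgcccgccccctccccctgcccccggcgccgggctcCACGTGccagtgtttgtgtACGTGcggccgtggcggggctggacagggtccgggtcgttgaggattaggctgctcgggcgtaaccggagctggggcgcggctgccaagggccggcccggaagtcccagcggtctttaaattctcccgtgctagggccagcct
BNIP3, chr10:131981924-131982173, minus strand: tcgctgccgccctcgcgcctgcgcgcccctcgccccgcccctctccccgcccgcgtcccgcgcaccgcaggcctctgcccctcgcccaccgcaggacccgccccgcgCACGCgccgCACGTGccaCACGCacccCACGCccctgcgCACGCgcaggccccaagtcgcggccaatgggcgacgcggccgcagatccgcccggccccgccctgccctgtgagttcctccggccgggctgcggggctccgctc
PFKFB4, chr3:48556804-48557053, minus strand: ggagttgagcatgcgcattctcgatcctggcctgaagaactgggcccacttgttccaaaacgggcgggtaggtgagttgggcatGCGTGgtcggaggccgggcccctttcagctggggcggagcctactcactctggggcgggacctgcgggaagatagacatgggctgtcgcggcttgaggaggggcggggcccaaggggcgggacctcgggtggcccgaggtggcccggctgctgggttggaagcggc
ADM, chr11:10304823-10305072, plus strand: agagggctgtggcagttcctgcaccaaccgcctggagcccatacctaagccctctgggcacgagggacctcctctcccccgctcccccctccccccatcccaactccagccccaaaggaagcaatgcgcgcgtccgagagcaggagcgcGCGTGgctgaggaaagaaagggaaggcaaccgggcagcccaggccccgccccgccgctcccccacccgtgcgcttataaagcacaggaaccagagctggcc
LDHA, chr11:18394313-18394562, plus strand: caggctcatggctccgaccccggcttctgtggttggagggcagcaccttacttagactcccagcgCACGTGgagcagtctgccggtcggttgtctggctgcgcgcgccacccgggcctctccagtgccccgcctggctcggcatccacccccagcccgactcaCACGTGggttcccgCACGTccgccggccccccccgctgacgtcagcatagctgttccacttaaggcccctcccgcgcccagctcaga

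ANKRD37 held 3 matches to ACGTG in these 250 bases, 2 of them in 1 CACGTG palindrome that reads the same on both strands. BNIP3 held 6 matches, 2 to ACGTG, again from 1 palindrome, and 4 to GCGTG. PFKFB4 and ADM each held 1 match to GCGTG. LDHA held 5 matches to ACGTG, 4 of them from 2 CACGTG palindromes. In windows of 300 bases, reaching 50 bases past the start, at least 1 of the motifs was present in 26 of the 35 measured members with a window (74.3%), against 56.4% of the 15384 measured genes that had one. These 35 do not include NDRG1, BNIP3L, VEGFA and SLC2A3. Among members past the threshold used below, NDRG1 apart, the share was 5 of 5, with the match of PKM past the start, and among the remaining members 21 of 30, or 70.0%. With each motif counted whether or not the other was present, ACGTG occurred in 45.7% of the members and 24.1% of measured genes. GCGTG occurred in 54.3% and 44.3%. The members' shares were close to those of 63 other genes of the same pathways, listed further below. Of those 44.4% held ACGTG, 50.8% GCGTG and 71.4% at least 1 of the motifs. A match describes letters in a window and not a bound site.

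Soft and stiff were compared with limma, a linear model fitted here to all 54613 probe sets at once, with p-values adjusted by the Benjamini-Hochberg method over all of them and a threshold of 0.05. Each difference is the soft mean minus the stiff mean in log2 units, where 1 unit means a doubling, and errors are moderated standard errors (SE). The arrays correlated at 0.9932 to 0.9982 with each other, and stiff A and B lay apart from stiff C and D on the second principal component (16.4% of the variance), so differences of the soft arrays from either pair (written stiff A/B and stiff C/D) are given where they matter. These pairs were chosen from the same values, so adjusted p-values against a pair are descriptive only. The 6 genes checked as markers of this line (VIM, CD44, CAV1, AXL, LGALS1 and EGFR) were above the background level of 6.31 on the log2 scale, although AXL was lower on soft (log2 difference -0.23, adjusted p = 0.0318) and CAV1 lay lower without overlap (-0.17), and PGR and CDH1 lay below background; ESR1 lay near background, at a mean of 6.43 on soft and 6.38 on stiff. Of 4 measured blood cell markers 3 were below background in both groups, as were 4 of 5 fibroblast and endothelial markers. The exceptions were HBB and PECAM1, and PECAM1 was higher on soft (log2 difference 0.49). HBB and CD3E also belong to the 13 silent genes that set the background level, HBB as the brightest. Their place relative to that level was thus fixed in advance, and only PTPRC and CD14 were blood markers free to differ. The array means of the fibroblast and endothelial list ran from 5 to 5.16 on soft and from 4.90 to 5.07 on stiff. The part of these lists in the results was not tested. In a bulk extract, a change in the number of cells that express a gene cannot be told apart from a change in the level per cell.

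On the soft substrate 5 of the 39 measured members rose, NDRG1, PKM, ANKRD37, PFKFB4 and BNIP3, and 1 fell, ADM, while 33 did not pass the threshold. Over all 19775 genes, 4.39% were called higher on soft and 5.93% lower, against 12.8% and 2.56% of the members; called in either direction were 10.3% of all genes and 15.4% of members. Most members differed by little and in the same direction: 33 of 39 had a difference above 0, against 51.9% of all genes, and the median difference was 0.16, against 0.0075 over all genes. The 4 soft arrays lay wholly above the 4 stiff arrays for 14 members (35.9%) and wholly below for 1, where 8.78% and 11.2% of all genes did so. Members are bright, and among the 11237 genes above background these shares were 13.4% and 18.3%. Of those genes 17.0% were called, 7.15% higher and 9.80% lower. Of the 38 members above background 15.8% were called, 13.2% higher and 2.63% lower, so calls in either direction were no more frequent among members. A difference above 0 was found for 44.9% of those genes (median -0.0225) and 84.2% of those members (median 0.16). Averaged over the 39 members, each gene relative to its own mean, the soft arrays lay between 0.0555 and 0.0924 and the stiff arrays between -0.0945 and -0.0543. The threshold is near many members. When dim probe sets were left out before the model was fitted, HIF1A, VEGFA, MXI1, BNIP3L, HK2, PFKP, ENO2 and PDK1 also passed. That gave 13 of 38 members higher and 1 lower, where 12% and 16.8% of all genes tested that way were (28.7% in either direction). Members past the threshold numbered 13 of 39 (12 higher) with probe sets above the median level only, 12 (11 higher) when a gene's probe sets were averaged and 11 (all higher) with a trended, robust variance model, against 24.7%, 11.5% and 15% of all genes, and 10.4%, 5.06% and 6.11% higher.

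**Figure D1:**
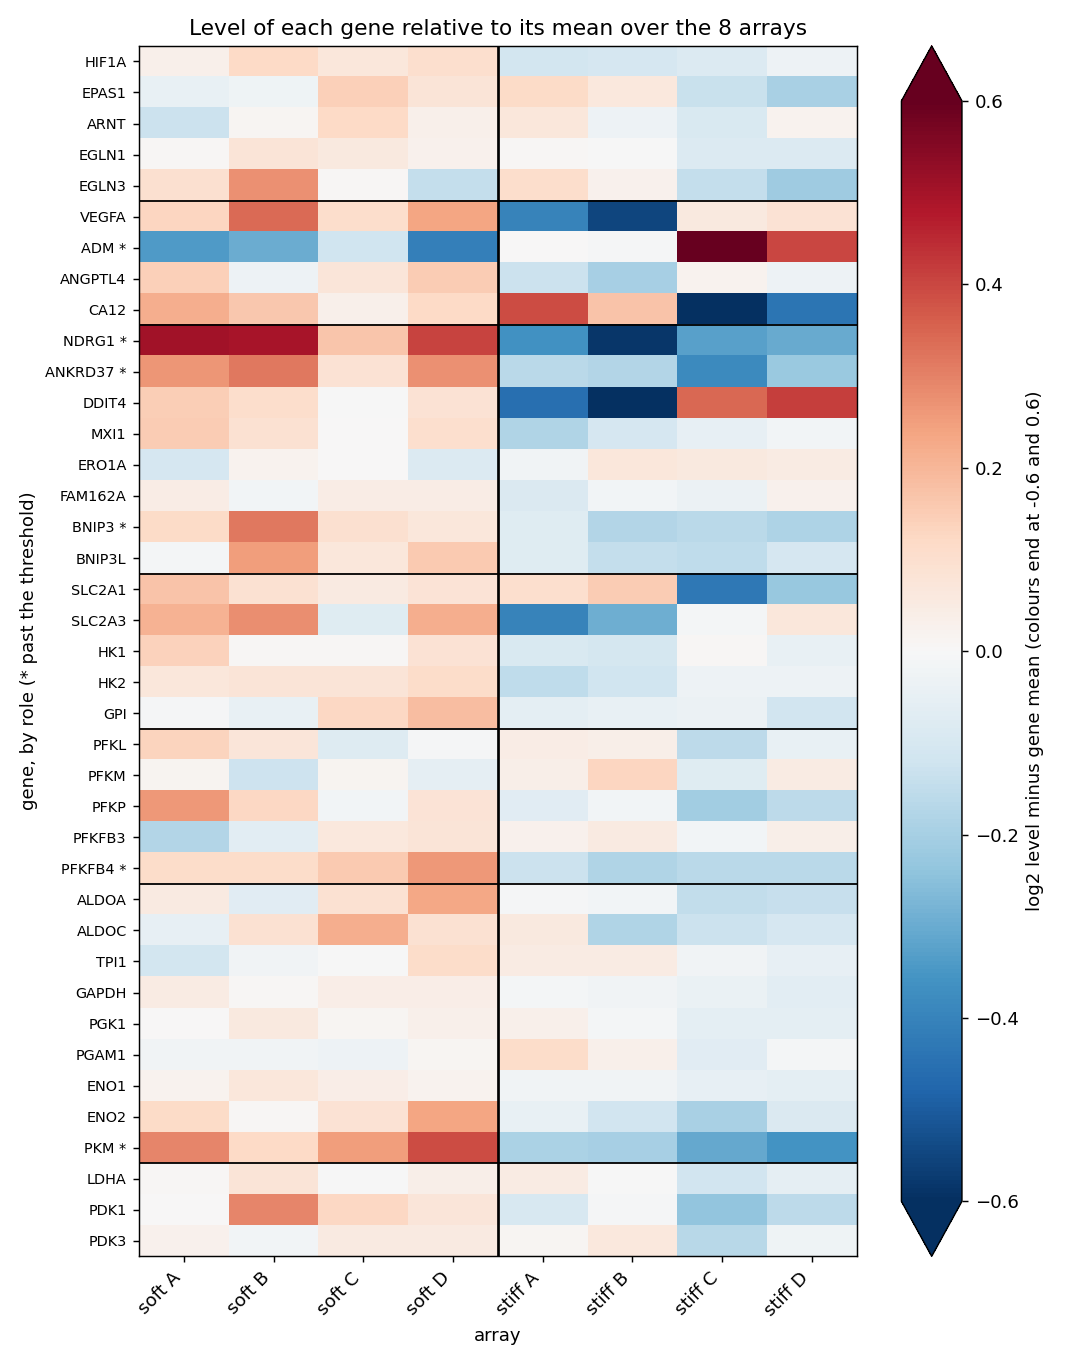
Log2 level of the 39 measured genes (rows, in role groups set off by black lines) on the 8 arrays (columns, soft left of the black line and stiff right of it), relative to each gene's mean over the 8 arrays; a star marks the 6 genes past the threshold. NDRG1, ANKRD37, PKM and PFKFB4 are red on all 4 soft arrays, ADM is blue there, and DDIT4, CA12, VEGFA and SLC2A1 change colour between stiff A and B and stiff C and D.

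The HIF subunits and oxygen sensors, 5 genes, had no member past the threshold. HIF1A, the oxygen-labile subunit, had log2 levels of 13.54, 13.63, 13.58 and 13.61 on soft A to D and 13.40, 13.41, 13.43 and 13.48 on stiff A to D. All soft arrays were above all stiff arrays, by a small step of 0.16 (SE 0.0566, adjusted p = 0.110 by limma). EPAS1, which encodes the related HIF-2 alpha subunit, had 10.35, 10.37, 10.54 and 10.47 on soft and 10.51, 10.46, 10.26 and 10.20 on stiff, so the groups overlapped (difference 0.075, adjusted p = 0.661). ARNT, the shared partner subunit, differed by 0.015 (95% interval -0.139 to 0.169). EGLN1, the main oxygen sensor of the hydroxylase family and itself a HIF target, differed by 0.0825 (adjusted p = 0.444). EGLN3, a hydroxylase that HIF induces strongly in many cells, was below background in both groups, at 6.22 ± 0.18 on soft and 6.11 ± 0.15 on stiff (SD, n = 4 each), and differed by 0.12 (adjusted p = 0.555 by limma).

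Among the secreted, surface and pH-regulating targets, 1 of 4 measured genes passed, in the downward direction. Of all genes 5.93% were lower, and 9.80% of genes above background. ADM, which encodes the vasodilator peptide adrenomedullin, had log2 levels of 10.88, 10.92, 11.10 and 10.81 on soft A to D and 11.22, 11.21, 11.99 and 11.62 on stiff A to D. Every soft array was below every stiff array, and stiff C and D were the highest. ADM fell by 0.58 (SE 0.154, adjusted p = 0.0377 by limma), and its level on stiff was 1.5-fold that on soft. The call rested on several arrays: without stiff C the difference was -0.42 (adjusted p = 0.0536), and it was also lost without stiff D (adjusted p = 0.0949), soft A (0.0917), soft B (0.0825) or soft D (0.0959). A trended, robust variance model also ended the call (adjusted p = 0.0511). Relative to stiff A/B ADM differed by -0.29 (adjusted p = 0.130) and relative to stiff C/D by -0.88 (adjusted p = 0.00864).

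VEGFA, the main growth factor for blood vessels, had 12.18, 12.39, 12.16 and 12.29 on soft A to D and 11.65, 11.50, 12.11 and 12.14 on stiff A to D. The soft arrays were the 4 highest, but soft C at 12.16 was next to stiff D at 12.14. The difference was 0.41 (SE 0.136, adjusted p = 0.0931), or 0.68 relative to stiff A/B (adjusted p = 0.00687) and 0.13 relative to stiff C/D (adjusted p = 0.472). Another 2 of its 4 probe sets passed the threshold with all arrays, by 0.49 (adjusted p = 0.0162) and 0.57 (adjusted p = 0.0336). Both of these carry the manufacturer's mark x_at, for probes that may match other genes. The remaining probe set, without that mark, differed by 0.20 (adjusted p = 0.314). CA12, a cell-surface carbonic anhydrase that helps cells export acid, had 9.53, 9.47, 9.34 and 9.43 on soft and 9.70, 9.48, 8.66 and 8.87 on stiff. Its soft mean lay between those of the stiff pairs, and it differed by -0.15 relative to stiff A/B (adjusted p = 0.455) and by 0.68 relative to stiff C/D (adjusted p = 0.00792), and by 0.27 with all arrays (adjusted p = 0.463). ANGPTL4, a secreted inhibitor of lipoprotein lipase, differed by 0.17 (adjusted p = 0.184).

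The intracellular stress and feedback targets held more calls than any other role group, with 3 of 8 genes higher on soft and none lower. Of all genes 4.39% were higher, and 7.15% of genes above background. The role groups are small and were not tested against each other. NDRG1, a cytoplasmic stress-responsive protein known as a metastasis suppressor in several cancers and one of the most widely used hypoxia markers, had log2 levels of 11.02, 11.01, 10.68 and 10.92 on soft A to D and 10.15, 9.93, 10.19 and 10.21 on stiff A to D. All soft arrays were above all stiff arrays, with soft C the lowest of the soft group. NDRG1 rose by 0.79 (SE 0.0919, adjusted p = 0.00078), to 1.73-fold its level on stiff, the largest difference among the 39 measured members. It kept its call in all 19 alternative settings that gave it a value, with differences of 0.71 to 0.87.

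ANKRD37, an ankyrin-repeat protein gene and a known direct target of HIF-1, had 8.88, 8.93, 8.70 and 8.89 on soft and 8.45, 8.44, 8.23 and 8.39 on stiff. The groups did not overlap, and array C was the lowest of either group. ANKRD37 rose by 0.47 (SE 0.075, adjusted p = 0.00382), or 1.39-fold, and passed in all 20 alternatives, with differences of 0.27 to 0.54. The lowest came from averaging its probe sets, the other of which differed by 0.0675 (adjusted p = 0.732). BNIP3 and BNIP3L encode related outer-membrane proteins that direct the removal of mitochondria (mitophagy). BNIP3 had 12.59, 12.79, 12.57 and 12.54 on soft and 12.40, 12.30, 12.31 and 12.29 on stiff. It rose by 0.30 (SE 0.07, adjusted p = 0.0236), or 1.23-fold, with soft B the highest array. Its call was lost without soft B (adjusted p = 0.0511), stiff B (0.0677), stiff C (0.0585) or stiff D (0.0655), with differences of 0.24 to 0.29, and relative to either stiff pair (0.27, adjusted p = 0.145, and 0.32, adjusted p = 0.0870), while its other probe set rose by 0.38 (adjusted p = 0.00452).

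BNIP3L had 11.71, 11.97, 11.79 and 11.88 on soft and 11.65, 11.58, 11.57 and 11.62 on stiff. All soft arrays were higher, yet the difference of 0.23 (SE 0.0686, adjusted p = 0.0584) stopped short of the threshold. It passed in 8 of 20 alternatives, among them without soft A (0.28, adjusted p = 0.0374). The other probe set of BNIP3L rose by 0.65 (SE 0.0758, adjusted p = 0.00078). Of the pair of mitophagy genes only BNIP3 was thus called by its brightest probe set, while the other probe set passed for both genes. Both probe sets of both genes had differences above 0.

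DDIT4, an inhibitor of the growth kinase mTORC1 that answers to low oxygen, glucocorticoids and other stresses, had 11.96, 11.92, 11.81 and 11.90 on soft and 11.36, 11.17, 12.16 and 12.23 on stiff. The soft arrays were tight (SD 0.0634) and the stiff arrays spread widely (SD 0.543), with all soft arrays above stiff A and B and below stiff C and D. With all arrays it differed by 0.17 (adjusted p = 0.699), relative to stiff A/B by 0.63 (adjusted p = 0.00673) and relative to stiff C/D by -0.30 (adjusted p = 0.0734). MXI1, an antagonist of MYC, differed by 0.17 with no overlap of the groups (adjusted p = 0.123). FAM162A, a mitochondrial protein linked to hypoxic cell death, differed by 0.0575 (adjusted p = 0.614). ERO1A, the oxidase that forms disulphide bonds in the endoplasmic reticulum, differed by -0.08 (adjusted p = 0.479), and its other probe sets by 0.0775 and -0.03.

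**Figure D2:**
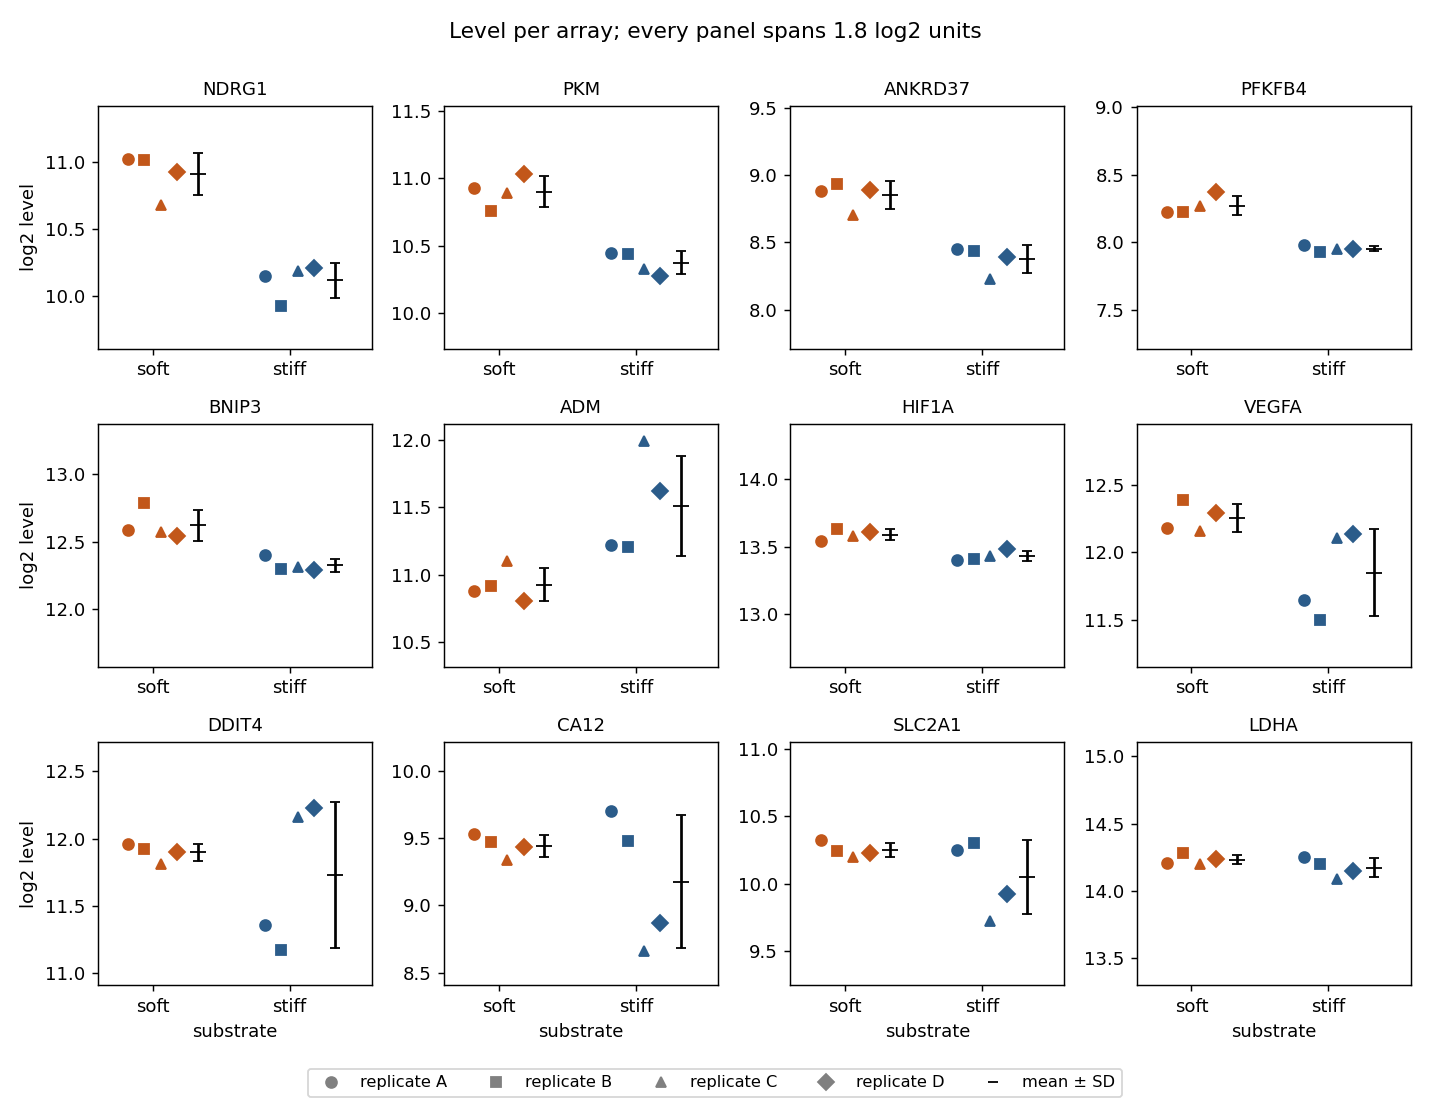
Log2 level on each array for 12 members, soft left and stiff right in each panel, marker shape by replicate letter, with the mean and SD of the 4 arrays in black; every panel spans the same range. In the top row the soft arrays stand clear of the stiff arrays, while for VEGFA, DDIT4, CA12 and SLC2A1 the stiff arrays fall into A and B against C and D.

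Glucose import and the first steps of glycolysis, 5 genes, had no member past the threshold, and all 5 differences were above 0. SLC2A1, the widely expressed glucose transporter GLUT1, had 10.32, 10.24, 10.20 and 10.23 on soft and 10.25, 10.30, 9.72 and 9.92 on stiff. The soft arrays were close to stiff A and B and above stiff C and D, so the difference was 0.20 with all arrays (adjusted p = 0.345), -0.0275 relative to stiff A/B and 0.43 relative to stiff C/D (adjusted p = 0.0302). SLC2A3, the high-affinity transporter GLUT3, showed the opposite split, with 8.09, 8.16, 7.81 and 8.10 on soft and 7.48, 7.59, 7.87 and 7.95 on stiff. It differed by 0.32 (adjusted p = 0.113), by 0.51 relative to stiff A/B (adjusted p = 0.0345) and by 0.13 relative to stiff C/D. The soft and stiff arrays of SLC2A3 overlapped, and 1 of its other probe sets rose by 0.39 (adjusted p = 0.0226).

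HK2, the inducible hexokinase that traps glucose in the cell, had 11.77, 11.78, 11.78 and 11.81 on soft and 11.55, 11.58, 11.67 and 11.67 on stiff. The groups did not overlap, by a step of 0.17 (SE 0.0581, adjusted p = 0.104). Its other probe sets, at lower levels, pointed the other way, by -0.34 (adjusted p = 0.0873) and -0.32 (adjusted p = 0.141). HK1, the constitutive hexokinase, and GPI, which interconverts the hexose phosphates, differed by 0.12 and 0.13 (adjusted p = 0.285 for HK1 and 0.297 for GPI).

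Of the phosphofructokinases and their bifunctional regulators 1 of 5 rose. Of all genes 4.39% were higher, and 7.15% of genes above background. PFKFB4, which makes and degrades the sugar phosphate that activates phosphofructokinase, had log2 levels of 8.22, 8.22, 8.27 and 8.37 on soft and 7.98, 7.93, 7.95 and 7.95 on stiff. The stiff arrays lay close together (SD 0.0206) and every soft array was above them. PFKFB4 rose by 0.32 (SE 0.0596, adjusted p = 0.00855), or 1.25-fold, with the call kept without any single array and nearly the same difference against either stiff pair (0.315 and 0.32; adjusted p = 0.0592 and 0.0597 with 2 stiff arrays). Its other probe set differed by 0.055 (adjusted p = 0.692), and the average of both rose by 0.19 (adjusted p = 0.0309). Its paralog PFKFB3 differed by -0.05 (95% interval -0.203 to 0.103, adjusted p = 0.736). The phosphofructokinase subunits differed by 0.23 for the platelet type PFKP (adjusted p = 0.0911), 0.0625 for the liver type PFKL (adjusted p = 0.671) and -0.07 for the muscle type PFKM (adjusted p = 0.592).

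**Figure D3:**
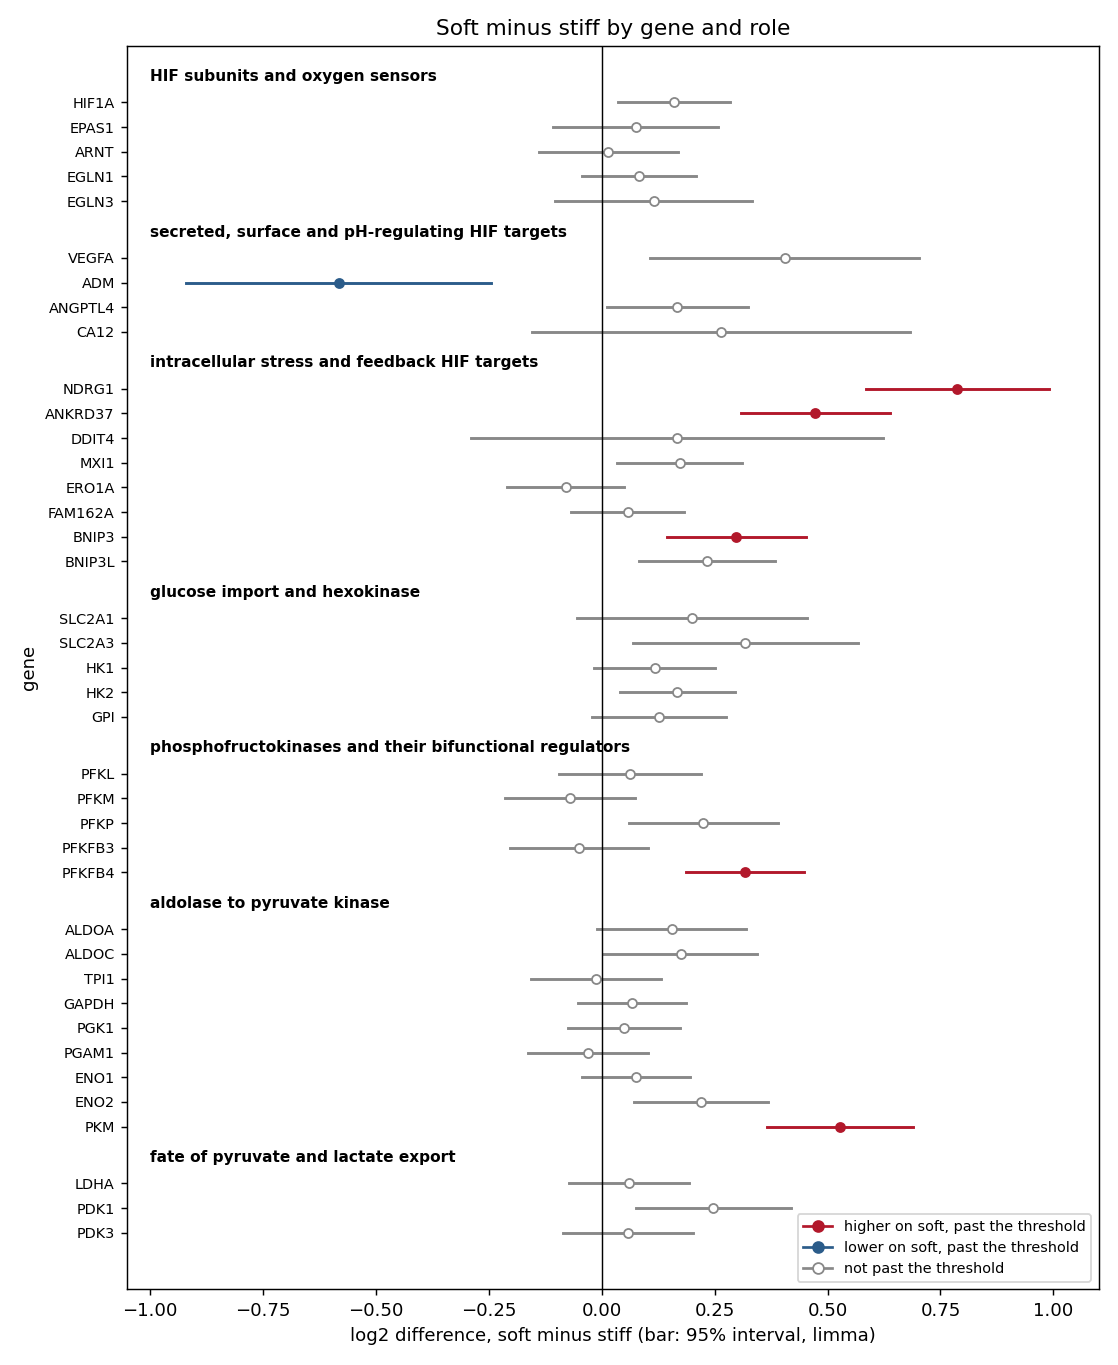
Log2 difference, soft minus stiff, of each measured gene in its role group (points), with the 95% interval of the limma fit (bars); filled red points are higher on soft and filled blue points lower past the threshold, and open grey points did not pass. NDRG1 lies farthest right at 0.79 and ADM farthest left at -0.58, and most grey points lie right of 0.

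From aldolase to pyruvate kinase 1 of 9 genes rose, the last of the chain. That is 11.1% called, against 10.3% of all genes and 17.0% of genes above background. Over the 22 measured members of glycolysis and pyruvate metabolism 9.09% were called, and over the 17 of the hypoxia response 23.5%. These shares were not tested against each other. PKM encodes pyruvate kinase M, whose splice forms M1 and M2 are not told apart here, and had 10.93, 10.76, 10.89 and 11.03 on soft and 10.45, 10.44, 10.33 and 10.28 on stiff. Every soft array was above every stiff array. PKM rose by 0.53 (SE 0.0738, adjusted p = 0.00197), or 1.44-fold, its second probe set by 0.44 (adjusted p = 0.00949), and the call was kept in all 20 alternatives.

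Of the abundant enzymes upstream of PKM, GAPDH, PGK1, TPI1, PGAM1 and ENO1 hardly differed, while ALDOA, given further below, differed by more. GAPDH, the dehydrogenase often used as a loading control, had 14.20, 14.16, 14.19 and 14.19 on soft and 14.14, 14.13, 14.11 and 14.09 on stiff. The groups did not overlap, yet the step was 0.0675 (95% interval -0.0515 to 0.187, adjusted p = 0.518). PGK1, which makes the first ATP of the pathway and is a classical HIF target, had 13.63, 13.69, 13.64 and 13.66 on soft and 13.66, 13.62, 13.57 and 13.57 on stiff. It differed by 0.05 (95% interval -0.0738 to 0.174, adjusted p = 0.666). TPI1, PGAM1 and ENO1 differed by -0.0125, -0.03 and 0.0750, and their 95% intervals together ran from -0.162 to 0.194.

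The remaining genes of these steps differed by somewhat more. ENO2, the enolase named for neurons and also a hypoxia-induced gene, differed by 0.22 with all soft arrays above all stiff arrays (adjusted p = 0.0688), and passed in 5 of 20 alternatives. ALDOA and ALDOC, which split fructose bisphosphate, differed by 0.16 and 0.18 (adjusted p = 0.249 for ALDOA and 0.200 for ALDOC). For PGK1 and ENO1 1 further probe set each fell, by 0.33 (adjusted p = 0.0253) and 0.30 (adjusted p = 0.00981), against small differences at the brighter probe sets of the same genes.

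The 3 measured genes for the fate of pyruvate did not pass. LDHA, which turns pyruvate into lactate, had 14.21, 14.28, 14.20 and 14.24 on soft and 14.25, 14.20, 14.09 and 14.15 on stiff, and the groups overlapped. Its difference was 0.06 (95% interval -0.0724 to 0.192, adjusted p = 0.621), beside 5 ACGTG matches, palindromes counted on both strands, in the promoter window printed above. PDK1, a kinase that keeps pyruvate out of the mitochondrial citrate cycle, had 8.98, 9.27, 9.10 and 9.05 on soft and 8.88, 8.97, 8.74 and 8.82 on stiff. It differed by 0.25 with no overlap (SE 0.0784, adjusted p = 0.0760), and another of its probe sets, below background in both groups, rose by 0.72 (adjusted p = 0.00115). PDK3, a related kinase, differed by 0.0575 (adjusted p = 0.669).

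Over all probe sets of the members, 12 of 99 were higher on soft and 3 lower, against 4.64% and 4.63% of all 54613 probe sets. Of the 26 members with several probe sets, none had probe sets called in both directions. For 6 members the brightest probe set missed the threshold while another passed: VEGFA, BNIP3L, SLC2A3 and PDK1, higher, and PGK1 and ENO1, lower. The brightest probe set carried the manufacturer's mark x_at, for probes that may match other genes, for 5 members, ALDOA, CA12, FAM162A, GAPDH and PFKL, so their values may include related transcripts. For another 16, NDRG1 among them, it carried the mark s_at, for probes shared by several transcripts.

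**Figure D4:**
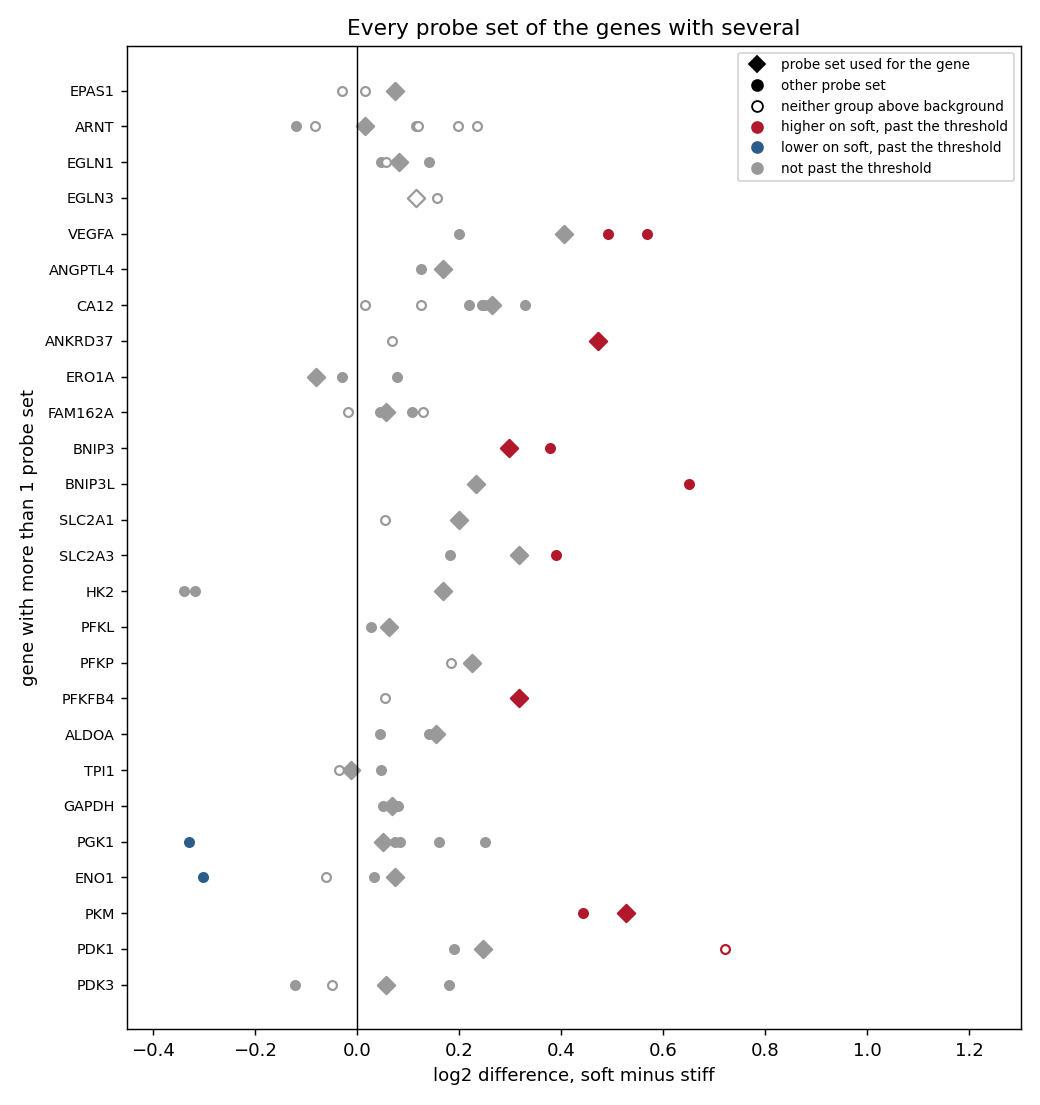
Log2 difference, soft minus stiff, of every probe set of the 26 members with more than 1; diamonds are the probe sets used for the gene, open symbols had neither group above background, and red and blue mark those past the threshold, higher and lower on soft. Both probe sets of BNIP3 and PKM are red, while HK2, PGK1 and ENO1 have other probe sets left of 0.

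Among members, the gap between the stiff pairs was widest for 4 HIF targets and both glucose transporters. Smaller gaps without overlap occurred too, as for EPAS1 and EGLN3. The pairs lay apart over the whole array, and the share of all genes with gaps of this size was not counted. The mean of stiff C and D minus that of stiff A and B was 0.93 for DDIT4, -0.83 for CA12, 0.59 for ADM, 0.55 for VEGFA, -0.46 for SLC2A1 and 0.38 for SLC2A3, and at most 0.255 in size for the other 33 members, with 0.05 or less for the HIF targets BNIP3, BNIP3L, ERO1A and FAM162A. Relative to stiff A/B 26 members had differences above 0, with a median of 0.09, and relative to stiff C/D 34, with a median of 0.13; both comparisons use the same 4 soft arrays. Of all genes 49.4% and 54.2% had differences above 0, with medians of -0.0025 and 0.015. Called were NDRG1, ANKRD37, PKM, VEGFA, DDIT4 and SLC2A3 against the first pair (5.58% of all genes were called) and NDRG1, ANKRD37, PKM, ADM, CA12 and SLC2A1 against the second (4.22%). NDRG1 rose by 0.87 and 0.71, ANKRD37 by 0.41 and 0.54 and PKM by 0.46 and 0.60. Nothing in the labels sets the replicate letters apart, and what divides the stiff arrays was not tested. Because the pairs were chosen from these values, the calls against each pair are descriptive only.

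**Figure D5:**
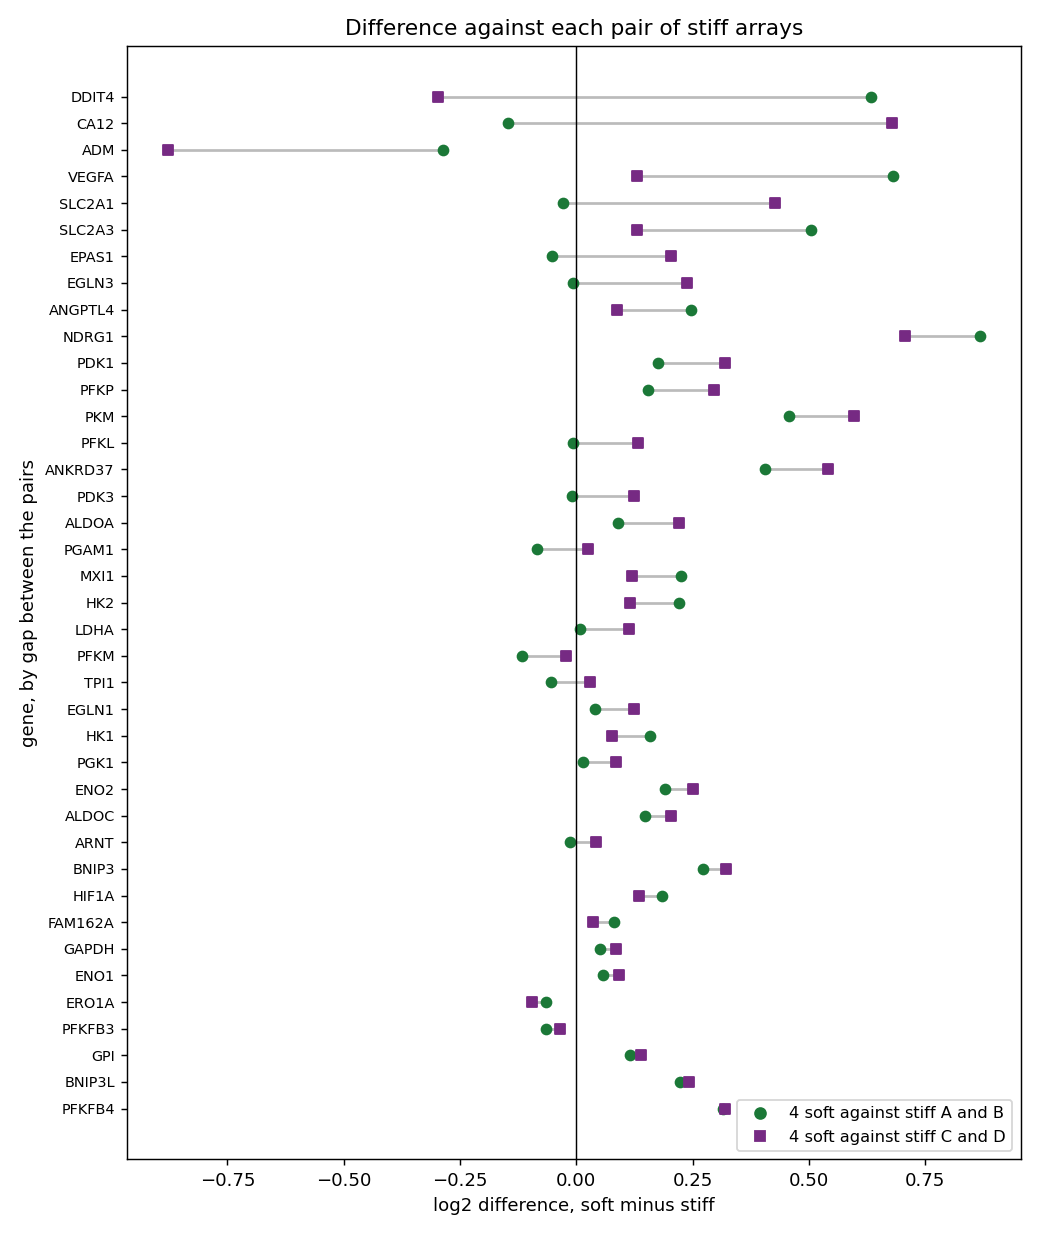
Log2 difference of the 4 soft arrays against stiff A and B (green circles) and against stiff C and D (purple squares) for each measured gene, ordered by the gap between the pairs. DDIT4 and CA12 lie on opposite sides of 0, while NDRG1, PKM, ANKRD37 and PFKFB4 lie right of 0 for both pairs.

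Other genes of the same pathways, from lists taken from textbook knowledge, gave calls of either sign: on soft 11 of the 73 measured were higher and 8 lower, with a median difference of 0.0025, where 4.39% of all genes were higher and 5.93% lower. Of the 28 HIF targets among them 9 were higher and 3 lower, or 42.9% called, against 10.3% of all genes and 17.0% of genes above background; lists were not tested against each other. BHLHE40 and BHLHE41, repressors of transcription tied to the circadian clock, rose by 0.64 (SE 0.147, adjusted p = 0.0212) and 0.44 (SE 0.0707, adjusted p = 0.00413). CSRP2, a LIM protein of the actin skeleton, and TMEM45A, a membrane protein, fell by 0.38 (adjusted p = 0.00854) and 0.34 (adjusted p = 0.0270). BHLHE40 had 10.12, 10.11, 10.02 and 10.16 on soft and 9.24, 9.07, 9.72 and 9.83 on stiff, with the same division of the stiff arrays as VEGFA. Of 14 other regulators of HIF only ARNT2, an alternative partner subunit, passed, lower by 0.24 (adjusted p = 0.0395); VHL, which removes the hydroxylated alpha subunit, differed by -0.0325 and HIF1AN, which blocks its activity, by -0.0125.

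Of 25 other glycolysis and pyruvate genes 2 rose and 3 fell. That is 20% called, against 10.3% of all genes and 17.0% of genes above background. Only 8 of the 25 had a difference above 0 (32%), with a median of -0.055. Among the 22 measured members of glycolysis and pyruvate metabolism 18 did, with a median of 0.12. PDK4, the kinase of pyruvate dehydrogenase induced by fasting and glucocorticoids, rose by 0.60 (SE 0.0947, adjusted p = 0.00378), and BSG, the chaperone of lactate transporters, by 0.36 (adjusted p = 0.0124). PGM2, which handles pentose and hexose phosphates, fell by 0.49 (adjusted p = 0.00338), and FBP1, an enzyme of glucose synthesis that runs against glycolysis, by 0.39 (adjusted p = 0.0232). Of 6 pentose phosphate genes RPIA, which makes ribose 5-phosphate, fell by 0.43 (adjusted p = 0.00344). The 19 calls on these lists became 12 without soft A, soft B, stiff A or stiff D, and 11 without soft D or stiff B.

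The manufacturer's GAPDH and ACTB controls, which compare the ends of a transcript as a sign of RNA integrity, had overlapping values. The 3' end of GAPDH exceeded its 5' end by 0.32 to 0.39 on soft and 0.35 to 0.43 on stiff arrays, and that of ACTB by 1.46 to 1.66 and 1.47 to 1.73, on the log2 scale.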

How the data were processed

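The deposited values are log2 levels, 1 per probe set and array of an Affymetrix array hybridised with biotin-labelled cRNA from total RNA; RMA made them, per the submitters' processing notes, while that they are log2, with 2 decimals, was judged from their range. RMA corrects background, gives all arrays a common distribution and summarises probes, so a shift shared by all genes is removed and differences of dim probe sets are compressed. Which RMA software and probe definition was used is not given in the sources used here. Of 54675 probe sets, 62 manufacturer's controls were left out. Platform annotation gave 1 symbol to 41091 probe sets, several to 1801 and none to 11721; those with several were not used.

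limma 3.58.1 (R 4.3.3) was run on the log2 values of all 8 arrays (lmFit, eBayes without trend, no filter), two-sided, and checked on simulated data. The members, gene lists and tests were chosen with earlier results of these data known, so counts are given beside those of all genes and no list test was made. Named with every array are all members past the threshold and HIF1A, EPAS1, VEGFA, SLC2A1, HK2, PGK1, LDHA and GAPDH; CA12, DDIT4, SLC2A3, BNIP3L, PDK1 and BHLHE40 were added after their values were seen. Of the other lists up to 2 genes per direction with the largest called differences are named. The background level is the 95th percentile of the means of 13 genes silent in breast cells. How separate the cultures behind the biological replicates were is not stated, and p-values reflect only the spread among these arrays, whose number limits the precision. Promoter windows (250 bases before to 50 after a start) are RefSeq's, GRCh38.p14; where a gene has several, the one listed first was used, and 35 of 39 members had one. Alternatives covered the replicate block, scaling, removal of dim probe sets, the variance model, weighting of arrays, the choice of probe set and the arrays left out.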

Additional observations from a re-analysis of the deposited data

Results flagged for a closer look

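Of 78 groups of 4 arrays (39 members on 2 substrates), 1 held an array far from the others. FAM162A had a level of 11.39 on soft B and 11.45 on each of the other soft arrays, a gap of the whole range because the other values are equal at 2 decimals. Chance flags about 5% of such groups.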

How the results depend on the processing

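With the replicate letter as a block (replicate block), 6 members passed, 5 higher and 1 lower, as without it. Same-lettered soft and stiff arrays correlated in their deviations from the group means at 0.12, -0.12, 0.0516 and -0.0447 for A to D, so the letters were not taken as pairs; the 19 calls on the other pathway lists became 13. The count of members past the threshold was 14 (13 higher) with probe sets above background only, 13 (12 higher) above the median level only, 12 (11 higher) when probe sets of a gene were averaged, and 11 (11 higher, 0 lower) with the trended, robust variance model. The first 2 of these refit the model to the brighter probe sets alone, so the moderated variances change as well as the adjustment. What caused the added calls was not tested in any of the settings. Relative to stiff A/B, 0 members were called lower, although only 26 of 39 had a difference above 0. The median difference was 0.1275 when probe sets of a gene were averaged, and 0.09 relative to stiff A/B. Leaving out 1 array gave 4 to 6 members past the threshold and 0 to 1 lower. The other pathway lists had 29 calls with the trended, robust model, 28 and 27 with the filters on level, 13 without probe sets marked x_at or s_at, 11 relative to stiff A/B, 7 relative to stiff C/D, and 11 to 19 without 1 array. No member past the threshold changed sign in any of the 20 alternatives, and repeated quantile normalization, cyclic loess and median centring each kept 1 member lower and gave 7, 6 and 5 higher. Dim probe sets limit what can be seen of EGLN3.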
